A study of Mus musculus with 22 samples.

Results

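The genes holding hnRNP A1 footprints were compared between spinal cords of mice with severe experimental autoimmune encephalomyelitis (EAE) and of naive mice. The comparison took the anti-hnRNP A1 immunoprecipitations of 4 severe EAE and 3 naive mice, 7 of the 22 samples of the series and 7 of its 10 immunoprecipitations with a list of footprints. A mouse was called severe by a clinical score of at least 2.5, as the labels give it. Severe mice 1 and 5 scored 2.5 and severe mice 2 and 6 scored 3.0. Naive mice 1, 2 and 3 carry no score. The 3 mild EAE immunoprecipitations (mice 3, 4 and 7, scores 1.5, 1.5 and 1.0) were used as a description where genes had been chosen on the 7 compared mice. The 10 matched inputs and 2 pooled IgG samples were not analysed here.

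All groups were female wild-type C57Bl/6 mice bought from Charles River at 10 weeks of age. EAE was induced with MOG(35-55), a peptide of myelin oligodendrocyte glycoprotein, given in complete Freund's adjuvant, and with pertussis toxin, and the cords were taken 15 days after clinical onset. The labels give the age at immunization as 12 weeks in one place and as 8 weeks in another. The naive mice were age-matched and untreated, so that they received neither peptide nor adjuvant nor toxin. Severe mouse 5 had been in remission shortly before its cord was taken, as the study states. The study also calls this mouse an outlier of the severe group, with binding that resembled naive and mild mice. Its reproducibility analysis flagged the same mouse. Whole spinal cord was used, and in such bulk tissue fewer cells of a type and less RNA per cell cannot be told apart.

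HnRNP A1 is an RNA-binding protein of the nucleus that shuttles to the cytoplasm. It binds nascent transcripts, mostly in introns, and regulates which exons are spliced into the mature RNA, and its preferred RNA motifs contain the letters UAG. In EAE, T cells primed against myelin enter the spinal cord, microglia and macrophages are activated, and myelin and axons are lost. Mislocalized hnRNP A1 has been described in neurons in multiple sclerosis and in EAE. In CLIPseq, RNA is cross-linked to the protein, precipitated with it and sequenced, and a footprint is a stretch of the genome covered by the recovered fragments.

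The deposited lists give a chromosome, a start and an end for each footprint, with no strand and no number of reads. A footprint was counted for every gene whose span, from first to last annotated base, it overlapped by at least 1 nt, so genes that overlap each other share footprints. To show what kind of sequence the results below turn on, 3 stretches of naive and 2 of severe footprints are given first, in the sense of the annotated gene, 5′ to 3′, on GRCm38. TAG, which is UAG in the RNA, is in capitals. Only the strand of the gene was searched. The first 3 lay in introns, were covered in full in all 3 naive mice and were touched in no severe mouse. They come from the genes of an acid-sensing sodium channel (Asic2), a neuronal splicing regulator (Rbfox1) and a neuronal adhesion molecule (Ntm).

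Asic2, intron, chr11:81559113-81559239, minus strand: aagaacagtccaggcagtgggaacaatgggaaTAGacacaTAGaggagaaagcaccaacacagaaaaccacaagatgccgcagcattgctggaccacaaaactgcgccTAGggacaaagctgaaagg
Rbfox1, intron, chr16:6891059-6891187, plus strand: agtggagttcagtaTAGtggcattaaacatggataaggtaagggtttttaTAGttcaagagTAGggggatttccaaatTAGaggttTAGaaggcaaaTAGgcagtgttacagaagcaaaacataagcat
Ntm, intron, chr9:29931537-29931631, minus strand: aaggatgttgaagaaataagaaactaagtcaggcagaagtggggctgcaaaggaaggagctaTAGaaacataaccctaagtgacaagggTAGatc

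The next 2 lay in coding sequence, were covered in full in at least 3 severe mice and were touched in no naive mouse. They come from a collagen chain (Col1a1, all 4 severe mice) and a small subunit of the proteasome cap (Sem1, severe mice 2, 5 and 6).

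Col1a1, coding, chr11:94947883-94947922, plus strand: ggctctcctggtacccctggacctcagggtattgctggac
Sem1, coding, chr6:6578479-6578526, minus strand: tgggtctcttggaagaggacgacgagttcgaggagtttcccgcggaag

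The 3 intron stretches held 3, 6 and 2 TAG matches and the 2 coding stretches held 0. Among all stretches chosen by the same rule from the genes named below, 10 of 12 intron and 1 of 5 coding stretches of the naive side held a TAG, and 3 of 4 intron and 2 of 8 coding stretches of the severe side. TAG is frequent in windows of such lengths. Of equally long windows cut from the middle of footprints of the 7 mice on genes of a single strand, 68.0%, 68.5% and 56.7% held a TAG at the lengths of the intron stretches, and 29.2% and 33.7% at those of the coding stretches. A match is a description of the letters and not of a binding site.

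The lists of the severe mice were of very unequal length. Naive mice 1, 2 and 3 had 17119, 17454 and 17494 footprints, whereas severe mice 1, 2, 5 and 6 had 2670, 209, 31870 and 673. Of these, 15451, 15753 and 16039 overlapped a gene in the naive mice and 2288, 171, 29747 and 602 in the severe mice. Severe mouse 5 thus held most of the severe footprints, and the lists of severe mice 2 and 6 were the shortest of the 7. Presence of a gene and the share of each mouse's in-gene footprints, per 10000, were therefore compared, rather than numbers of footprints. One footprint was worth 0.623 to 0.647 per 10000 in the naive mice, 0.336 in severe mouse 5, 4.37 in severe mouse 1, 16.6 in severe mouse 6 and 58.5 in severe mouse 2. A mean share over the severe mice is dominated by single footprints of mice 2 and 6.

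**Figure D1:**
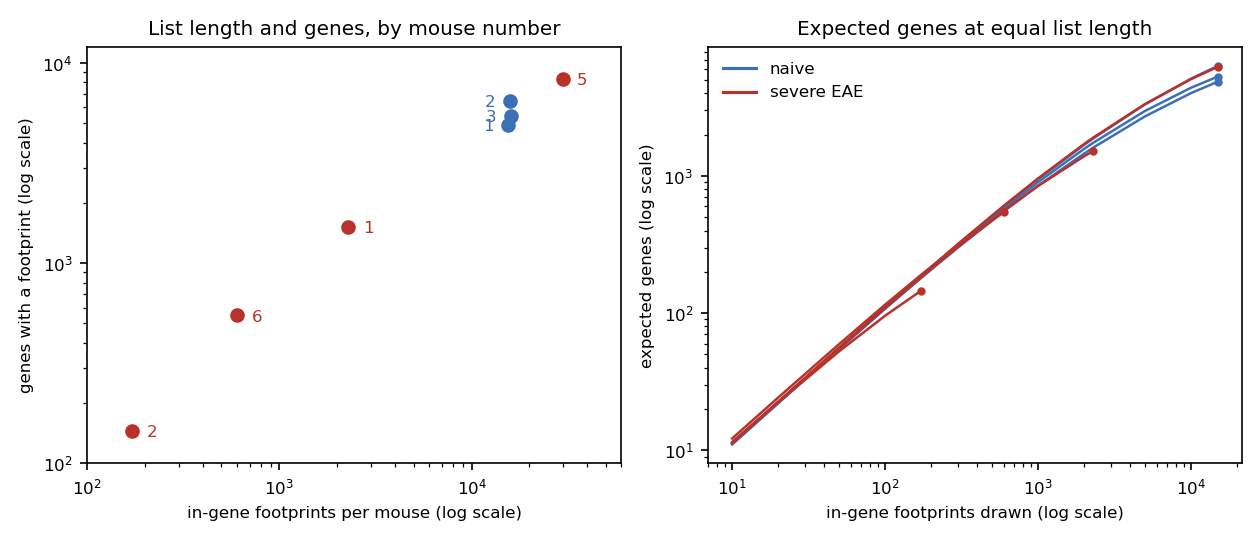
Left, genes with a footprint against in-gene footprints of each mouse, both on log scales, 1 point per mouse with its number. Right, genes expected when equally many in-gene footprints are drawn from each list, 1 line per mouse, both axes on log scales. The severe mice (red) spread from 171 to 29747 in-gene footprints, while the naive mice (blue) lie together, and at equal numbers drawn the lines lie close to each other except that of severe mouse 2, the lowest.

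Footprints were found in 4912, 6478 and 5440 genes of the naive mice and in 1512, 145, 8298 and 549 genes of severe mice 1, 2, 5 and 6. The naive mean was 5610 ± 797 genes (SD, n = 3) and the severe mean 2626 ± 3825 (SD, n = 4). The difference of -2984 genes was smaller than the spread between severe mice (2-sided exact permutation test, p = 0.229, 0.429 after Benjamini-Hochberg adjustment over 5 such tests). With 3 mice against 4 there are 35 splits, and the smallest p this test can give is 0.0286. When every list was reduced to 171 in-gene footprints, 179, 185 and 181 genes were expected in the naive mice and 182, 145, 187 and 189 in the severe mice. The difference at equal length was -5.89 genes (exact permutation p = 0.971, adjusted 0.971). At 2288 in-gene footprints, severe mice 1 and 5 gave 1512 and 1894 genes, and the naive mice 1600, 1867 and 1736.

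A lower share of the footprints lay in very long genes in each severe mouse than in each naive mouse. Of the in-gene footprints, 48.4%, 48.2% and 44.7% fell in genes with a span over 100 kb in naive mice 1, 2 and 3, against 29.6%, 17.5%, 38.9% and 27.6% in severe mice 1, 2, 5 and 6. The groups did not overlap. The 95% Wilson intervals, which cover counting error of footprints only, were 38.4% to 39.5% in severe mouse 5, 12.6% to 23.9% in severe mouse 2 and 43.9% to 45.4% in naive mouse 3, the naive mouse with the lowest share. The naive mean was 47.1% ± 2.10 (SD, n = 3) and the severe mean 28.4% ± 8.78 (SD, n = 4). Their difference of -18.7 percentage points did not pass the test (exact permutation p = 0.0571, adjusted 0.286). In the mild mice, which took no part in this test, the shares were 26.3%, 37.9% and 37.4%, also below each naive mouse.

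The longest and the shortest genes differed in opposite directions. Genes over 300 kb, among which are many genes of synaptic adhesion and of ion channels, held 28.8%, 25.7% and 21.4% of the in-gene footprints of the naive mice and 11.1%, 5.26%, 17.3% and 10.6% of those of severe mice 1, 2, 5 and 6. Genes of up to 10 kb held 8.65%, 8.24% and 9.32% in the naive mice and 15.6%, 24.6%, 10.7% and 22.9% in the severe mice. The groups did not overlap in either class.

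**Figure D2:**
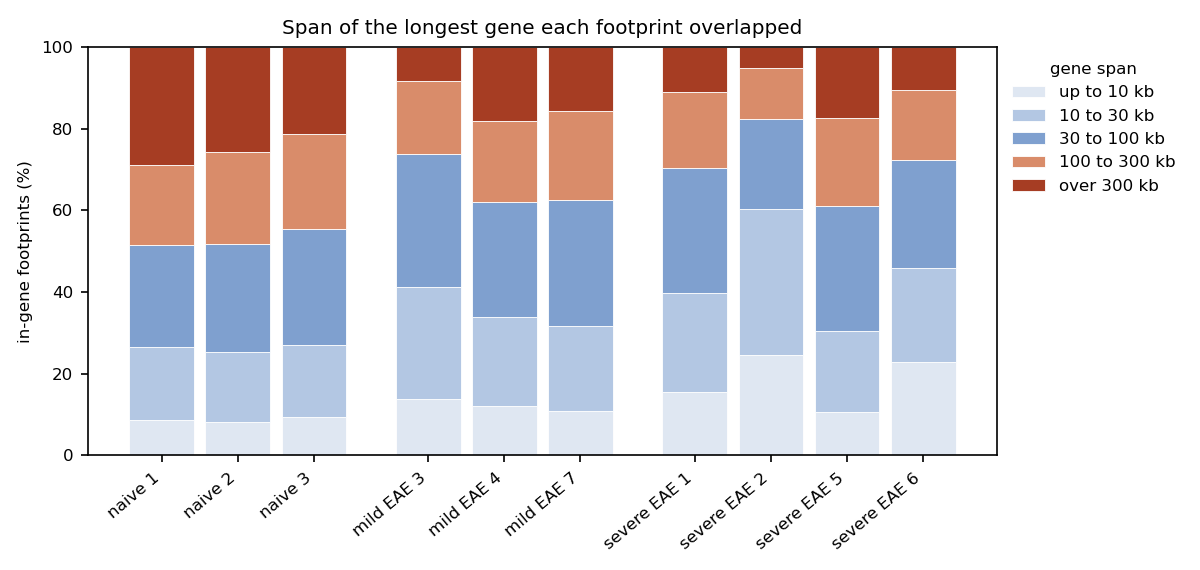
Share of in-gene footprints (%) by the span of the longest gene each footprint overlapped, 1 bar per mouse, with the span classes in colours. The orange and brown classes over 100 kb make up 44.7% to 48.4% of each naive bar and 17.5% to 38.9% of each severe bar.

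The shares in repeats, introns and coding sequence were set beside the shares by span. Footprints lying mostly in soft-masked repeats made up 16.5%, 18.6% and 13.3% of the in-gene footprints of the naive mice and 13.4%, 26.9%, 8.74% and 17.6% of those of the severe mice, which overlapped. Without them, 43.6%, 43.1% and 40.8% of the naive and 25.3%, 14.4%, 36.4% and 23.2% of the severe footprints lay in genes over 100 kb, and the groups still did not overlap (difference -17.7 percentage points, exact permutation p = 0.0571). Introns held 38.3%, 41.8% and 27.7% of naive and 18.2%, 31.6%, 21.2% and 23.6% of severe footprints. Coding sequence held 51.3%, 44.7% and 60.2% of naive and 59.3%, 32.7%, 63.9% and 42.7% of severe footprints. Among coding footprints alone, the share in genes over 100 kb was 28.4%, 30.9% and 34.5% in the naive mice and 24.0%, 1.79%, 30.3% and 18.3% in the severe mice, where mouse 5 lay within the naive range. Among intron footprints it was 80.2%, 73.3% and 74.5% in the naive mice and 59.4%, 37.0%, 73.6% and 56.3% in the severe mice, with mouse 5 again inside the naive range. The part of intron coverage in the difference by span was not tested.

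Footprints overlapped a gene at all in 90.3%, 90.3% and 91.7% of naive and in 85.7%, 81.8%, 93.3% and 89.5% of severe footprints (difference of means -3.16 percentage points, exact permutation p = 0.343, adjusted 0.429). Protein-coding genes held 94.0%, 94.4% and 94.1% of the naive in-gene footprints and 91.8%, 88.9%, 94.9% and 83.9% of the severe ones (difference -4.27 percentage points, exact permutation p = 0.257, adjusted 0.429). In both measures severe mouse 5 was above every naive mouse and the other severe mice were below.

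Presence of genes was compared among the 7099 genes with a footprint in at least 2 of the 7 mice. All 3 naive mice shared 2324 genes. Of these, 156 had no footprint in any severe mouse, which is 2.2% of the 7099 genes, 1432 had one in a single severe mouse, 591 in 2, 132 in 3 and 13 in all 4. In the other direction, 227 genes had a footprint in at least 3 severe mice, of which 145 were in all 3 naive mice and 26 in none, which is 0.366% of the 7099 genes. These classes were chosen by presence in these same mice and were given no test. The 156 became 1572 without severe mouse 5 and 422, 323 and 371 without naive mouse 1, 2 or 3. The 26 became 5, 13, 4 and 7 without severe mouse 1, 2, 5 or 6, when all 3 remaining severe mice had to hold the gene, and 40 without naive mouse 2.

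**Figure D3:**
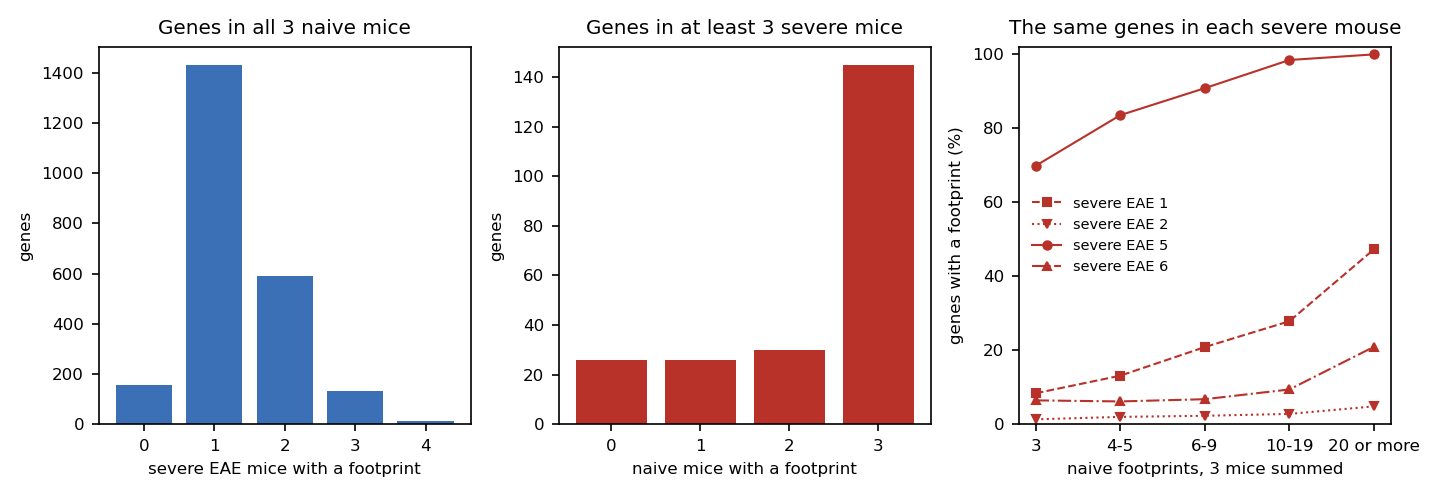
Left, genes with a footprint in all 3 naive mice by the number of severe mice that also had one. Middle, genes in at least 3 severe mice by the number of naive mice that had one. Right, the share (%) of the genes in all 3 naive mice that had a footprint in each severe mouse, by the summed footprints of the 3 naive mice, 1 line per severe mouse. The line of severe mouse 5 runs from 69.9% to 100% and the other 3 stay under 50%.

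Absence from the severe lists followed the number of naive footprints. Of the shared naive genes with exactly 3 naive footprints, the fewest possible, 26.9% were absent from every severe mouse. The share was 14.2% for 4 to 5 footprints, 8.49% for 6 to 9, 1.38% for 10 to 19 and 0 of 459 genes with 20 or more. Severe mouse 5 alone had a footprint in 69.9% of the first class and in 100% of the last. Its list decided most absences. A count of 0 allows a share of up to 3 footprints of the list, which is 1.01 per 10000 in severe mouse 5, 13.1 in severe mouse 1, 49.8 in severe mouse 6 and 175 in severe mouse 2. Of the 156 genes, 84 had a mean naive share above that limit in mouse 5 and 0 in mice 1, 2 and 6, whose lists were too short to show the absence of any of the 156 genes.

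The 156 genes were 111 protein-coding genes, 27 long noncoding RNA genes and 18 of other types. Their median span was 54.9 kb and 35.9% were longer than 100 kb, against 68.1 kb and 40.7% over the 2324 genes they were taken from and 36.3 kb and 25.1% over all genes tested. In protein-coding members, 50.8% of the 646 naive footprints lay in coding sequence and 42.4% in introns. In the mild mice, which the choice did not use, 43 of the 156 genes had no footprint, 60 had one in a single mouse, 32 in 2 and 21 in all 3. Of the 156 genes 36.5%, 30.8% and 52.6% had a footprint in mild mice 3, 4 and 7, and of all 2324 shared naive genes 74.3%, 69.3% and 88.6%. Of the 156, 98 shared no footprint with another gene.

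The 10 genes of this class with the largest naive share had several functions, and 3 are known from the handling of RNA or from the ABC protein family. Gas5, a noncoding RNA that hosts small nucleolar RNAs, had 5, 4 and 10 footprints in naive mice 1, 2 and 3, nearly all in its exons, and 0, 0 and 1 in the mild mice. Abcf3, an ATPase of the ABC family, had 4, 9 and 2 naive footprints, all in coding sequence, and 9, 4 and 3 in the mild mice. Parn, a ribonuclease that shortens poly(A) tails, had 5, 4 and 2 naive footprints and 2, 2 and 0 mild ones. These genes differed in the mild mice, where Abcf3 was present throughout and Gas5 almost absent.

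A motor, a kinase and a receptor gene were also among the 10. Myo1c, a myosin that links membranes to actin, had 8, 3 and 6 naive footprints and 0, 0 and 8 mild ones. Map3k4, a kinase of the stress-activated cascade, had 3, 3 and 8 naive footprints and 0, 0 and 9 mild ones. Both genes were thus footprinted in mild mouse 7 and not in mice 3 and 4. The list of mouse 7, with 22700 in-gene footprints against 13679 and 8832, was the longest of the 3. Grik3, a subunit of the kainate receptor for glutamate, had 3, 5 and 2 naive footprints and 3, 1 and 1 mild ones. Maml3, a coactivator of Notch signalling, had 2, 8 and 1 against 2, 0 and 2, and Pcnx2, a member of the pecanex family, had 4, 5 and 1 against 1, 0 and 0. The antisense transcript A330015K06Rik had 3, 6 and 4 naive footprints, all of which it shared with Kcnab1, which lies over it.

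Cpne9, a copine that binds membrane lipids in a calcium-dependent way, was the one gene of these 10 that was absent from the mild mice as well. It had 5, 4 and 5 naive footprints, all 14 in coding sequence and none in a repeat, and 0 in the 3 mild and 4 severe mice. A coding stretch of Cpne9 covered in 2 naive mice, chr6:113289985-113290048 on the plus strand of GRCm38, is shown as an example of this class. It held 0 TAG, as did all but 42.2% of equally long windows.

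Cpne9, coding: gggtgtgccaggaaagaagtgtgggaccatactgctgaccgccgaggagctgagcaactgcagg

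Besides presence, the shares of 637 genes were higher in every naive than in every severe mouse (8.97% of the genes tested), and those of 7 genes were higher in every severe than in every naive mouse (0.0986%). The 637 genes include all 156 genes above and 481 genes with at least 1 severe footprint. Their median span was 81.1 kb and 44.7% were longer than 100 kb. Among all genes tested, 5360 of 7099 (75.5%) had a lower mean share in the severe mice and the median difference was -0.355 per 10000. The exact permutation test of single genes gave p under 0.05 for 461 genes with a lower share (6.49%) and for 0 with a higher share (0%). None passed after Benjamini-Hochberg adjustment over the 7099 genes, where the smallest adjusted value was 0.44. With limma on log2(share + 1), 1064 genes were lower and 16 higher at an unadjusted p under 0.05, and 0 passed in either direction after adjustment.

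The 7 genes above every naive mouse needed a footprint in severe mouse 2, whose whole list held 171 in genes, while the 637 below needed a low share in severe mouse 5, whose list covered the most genes. Taken alone, severe mouse 5 was below every naive mouse in 796 genes (11.2%) and above every naive mouse in 1822 genes (25.7%). Without severe mice 2 and 6, a choice made after the data were seen, 494 genes were higher in both remaining severe mice than in every naive mouse. Without severe mouse 5, 1620 genes were lower in every severe mouse, and without naive mouse 1, 2 or 3 the number was 1275, 1246 and 1152. The 7 genes became 11, 51, 20 and 18 without severe mouse 1, 2, 5 or 6.

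Among the genes without overlap, the 10 with the largest difference of mean shares were mostly very long neuronal genes with intron footprints. Asic2, the acid-sensing sodium channel whose intron stretch is shown above, had 119, 71 and 70 footprints in the naive mice and 0, 0, 83 and 0 in severe mice 1, 2, 5 and 6. As shares these were 77.0, 45.1 and 43.6 per 10000 against 27.9 in severe mouse 5. Of its 260 naive footprints 259 were intronic. Nkain2, which encodes a neuronal membrane protein, had 117, 71 and 58 naive and 1, 0, 92 and 0 severe footprints, of which 58.9% in the naive mice lay mostly in repeats. Fam155a, an auxiliary subunit of a sodium leak channel, had 81, 41 and 44 naive and 1, 0, 77 and 1 severe footprints.

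Rbfox1, which encodes a neuronal regulator of splicing that binds its own set of introns, had 66, 43 and 49 naive and 4, 0, 64 and 1 severe footprints. Its shares were 42.7, 27.3 and 30.6 per 10000 in the naive mice and 17.5, 0, 21.5 and 16.6 in the severe mice. Severe mouse 5 reached 0.642 of the naive mean in this gene. Magi2, a scaffold protein of the synapse, had 76, 51 and 32 naive and 4, 0, 43 and 0 severe footprints. Nrg1, a growth factor of axons that signals to Schwann cells and glia, had 51, 30 and 30 naive and 1, 0, 33 and 0 severe footprints. Ntm (neurotrimin), a GPI-anchored adhesion molecule, had 49, 28 and 32 naive and 0, 0, 34 and 0 severe footprints. In these genes the number in severe mouse 5 was within or near the naive range, and it was the share, over the longest list of the 7, that was lower.

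Syne1 differed from the others in that its footprints were coding. The gene encodes nesprin-1, a giant spectrin-repeat protein that ties the nucleus to the cytoskeleton. It had 69, 65 and 111 naive footprints, 231 of these 245 in coding sequence, and 3, 0, 105 and 0 severe ones. Its shares were 44.7, 41.3 and 69.2 per 10000 in the naive mice and 13.1, 0, 35.3 and 0 in the severe mice, with only 2.86% of naive footprints in repeats. The potassium channel gene Kcnq1 and Kcnq1ot1, the noncoding RNA that runs antisense to it, had 75, 50 and 48 and 74, 48 and 48 naive footprints, almost all of them the same ones, and cannot be told apart without strand.

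In Asic2, Rbfox1 and Ntm the shares of the mild mice lay within the range of the severe mice and below every naive mouse. For Asic2 they were 4.39, 24.9 and 20.7 per 10000 in mild mice 3, 4 and 7, against 27.9 in severe mouse 5. In Nkain2 mild mouse 4, at 61.1 per 10000, lay within the naive range. Asic2 had 6, 22 and 47 footprints in mild mice 3, 4 and 7, Nkain2 had 10, 54 and 68, Rbfox1 had 9, 15 and 46 and Ntm had 0, 7 and 25. Mild mouse 3 had the lowest number of the 3 in each of these genes although its list was longer than that of mouse 4. The difference between mild and naive mice was not tested here.

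The 26 genes footprinted in at least 3 severe and no naive mice were short. Their median span was 4741 nt, and 0 of the 26 exceeded 100 kb. They were 15 protein-coding genes, 4 long noncoding RNA genes and 7 of other types. In protein-coding members, 60.8% of the 97 severe footprints were coding, 28.9% untranslated and 10.3% intronic, and 0.971% of the footprints of the class lay mostly in repeats. In the mild mice 24 of the 26 had a footprint, 8 of them in a single mouse, 8 in 2 and 8 in all 3, and 65.4%, 50% and 69.2% of them had one in mild mice 3, 4 and 7. The corresponding shares were 86.8%, 83.3% and 90.3% over the 227 genes in at least 3 severe mice and 53.2%, 42.8% and 68.1% over all genes tested.

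Of 11 tested genes of the microglia and macrophage list, 2 (Csf1r and Tyrobp) were among the 26 genes. Over all genes tested the share in this class was 0.366%. Csf1r, the receptor for the growth factor on which microglia depend, had 0 naive footprints, 1, 0, 13 and 1 in severe mice 1, 2, 5 and 6, and 8, 1 and 14 in the mild mice. Tyrobp, the adaptor through which microglial receptors signal, had 1, 0, 2 and 1 severe and 1, 0 and 3 mild footprints. A cluster of inhibitory leukocyte receptor genes (Lilrb4a, Lilr4b and Gm49339) and Gm40645, a noncoding transcript antisense to it, counted as 4 of the 26 genes. Lilrb4a, Lilr4b and Gm40645 each overlap Gm49339, and Gm40645 shared all its severe footprints with that gene. Gm49339, the one with most, had 2, 0, 8 and 2 severe and 4, 4 and 7 mild footprints. The cluster and the next gene were chosen after their values were seen. Npc2, which carries cholesterol inside the lysosome, had 1, 0, 4 and 2 severe and 2, 4 and 1 mild footprints. All of these genes were footprinted in severe mice 1, 5 and 6, with severe mouse 2, whose list was the shortest, at 0. Their absence from the naive mice is the rule that chose them. In severe mice 1 and 6, Csf1r and Tyrobp rested on 1 footprint each.

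Of the cytosolic ribosomal protein list, 1 gene of 36 tested was among the 26, which were 0.366% of all genes tested. This was Rpl32, a protein of the large ribosomal subunit, and it was the only gene of the 26 found in all 4 severe mice, with 1, 1, 3 and 1 footprints against 3, 1 and 3 in the mild mice. The small nucleolar RNA gene Snora7a lies inside it and shared 3 of these 6 severe footprints. Outside the list, Rpl28 had 2, 0, 4 and 1 severe footprints and Rps12, of the small subunit, 1, 0, 2 and 3. Sem1, whose coding stretch is printed above, had 0, 2, 3 and 2 severe footprints and 0, 0 and 1 mild ones. Pcbp1, an RNA-binding protein of the hnRNP K type, had 1, 1, 3 and 0 severe and 1, 1 and 0 mild footprints. Tgoln1, a protein of the trans-Golgi network, had 0, 1, 4 and 2, in part shared with Gm20536, and Abhd8, a predicted hydrolase, had 0, 1, 1 and 1 and no mild footprint. Short genes of the ribosome have many near-identical pseudogene copies, and a footprint assembled from their fragments may be placed on either.

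The 7 genes whose share was higher in every severe than in every naive mouse were led by genes of the extracellular matrix. Col1a1, a chain of type I collagen, had 0, 5 and 0 naive and 7, 5, 18 and 8 severe footprints, all in coding sequence and none in repeats. Its shares were 0, 3.17 and 0 per 10000 in the naive mice and 30.6, 292, 6.05 and 133 in severe mice 1, 2, 5 and 6. Col1a2, the other chain, had 0, 2 and 0 naive and 6, 5, 5 and 1 severe footprints. Fn1, which encodes fibronectin, had 0, 10 and 9 naive and 9, 2, 39 and 2 severe footprints, and shares of 0, 6.35 and 5.61 against 39.3, 117, 13.1 and 33.2 per 10000. In the mild mice Col1a1 had 9, 7 and 20 footprints and Fn1 18, 12 and 33, so that both genes were footprinted in every EAE mouse.

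The stretch of Col1a1 printed above was the one stretch of these genes covered in all 4 severe mice. It was also touched in 2 mild mice and in 0 naive mice. In severe mouse 5 the share of Col1a1 was 5.72 times and that of Fn1 3.29 times the naive mean, while in severe mouse 2 a single gene with 5 footprints took up 292 per 10000. Footprints of Fn1 were coding in 50 of 52 severe and 18 of 19 naive cases.

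Rpl32 and Pam were also among the 7. Pam, which amidates neuropeptides, was footprinted in all 10 mice, with 3, 4 and 3 naive and 4, 1, 10 and 1 severe footprints. Its shares were 1.94, 2.54 and 1.87 per 10000 in the naive mice and 17.5, 58.5, 3.36 and 16.6 in severe mice 1, 2, 5 and 6. In severe mouse 2 both genes rested on 1 footprint.

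**Figure D4:**
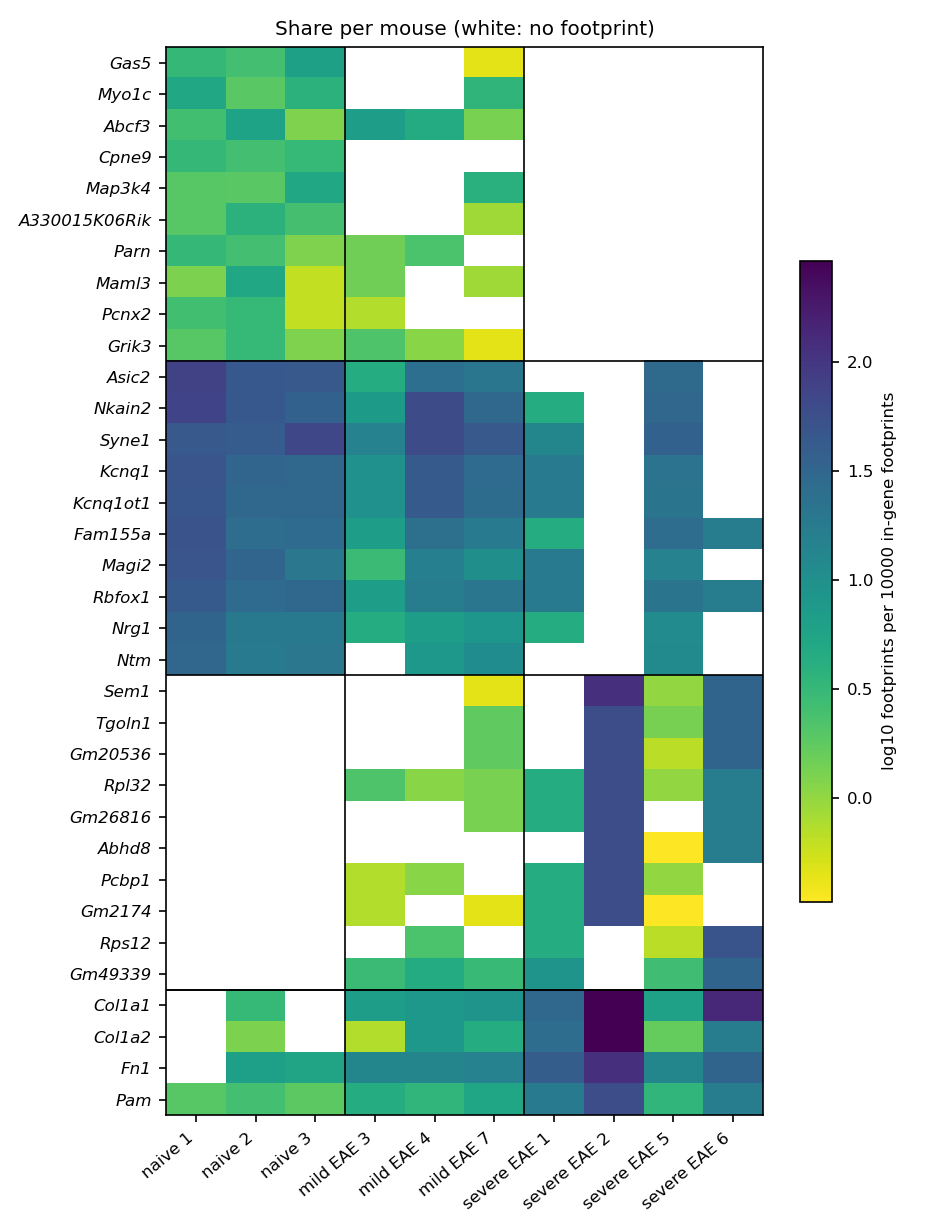
Footprints per 10000 in-gene footprints on a log10 colour scale, 1 row per gene and 1 column per mouse, with white for no footprint. From top to bottom are 10 genes found in all naive and no severe mice, 10 with the largest difference of mean shares among genes higher in every naive mouse, 10 found in at least 3 severe and no naive mice, and 4 of the genes higher in every severe mouse. The middle columns show the mild mice, in which all 4 genes of the last block and, of the first block, Abcf3 and Grik3 have a footprint throughout.

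Genes were also read by lists of cell types and pathways, described here by counts and shares and without a test of the list. Microglia and macrophage genes are given first. Of 20 such genes 17 had a footprint in any of the 7 mice, of which 11 (64.7%) had none in the naive mice and 0 none in the severe mice. The list of severe mouse 5, the longest of the 7, alone held all 17. Severe mice 1, 2 and 6 held 6, 1 and 3 of them, and naive mice 1, 2 and 3 held 3, 5 and 3. Over all 12367 genes with a footprint in any of the 7 mice, 21.2% had no naive and 29.6% no severe footprint. The list took 0.0453%, 0.0698% and 0.0374% of the in-gene footprints of the naive mice, 0.350%, 1.17%, 0.252% and 0.498% in severe mice 1, 2, 5 and 6 and 0.336%, 0.170% and 0.181% in the mild mice. Every EAE mouse was above every naive mouse. Of 11 members tested 8 had a higher and 3 a lower mean share, and their median difference was 1.34 per 10000 against -0.355 over all genes tested.

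Of the 3 members with a lower mean share, 1 did not overlap between groups. Cx3cr1, the fractalkine receptor of microglia, had 2, 5 and 3 naive footprints and 0, 0, 3 and 0 severe ones. All 10 naive footprints lay in introns of its 168 kb annotated span, most of them shared with the neighbouring genes Wdr48 and Ttc21a, so that they do not read the receptor's coding exon. T and B cell genes gave almost no footprint, with 1 in the naive and 1 in the severe mice over 16 genes. Cd3e, Cd3g, Cd4, Cd8a and Lck were at 0 in all 7 mice.

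Complement and Fc receptor genes followed the microglial list. They took 0.0777%, 0.0571% and 0.0935% of naive in-gene footprints and 0.874%, 0, 0.333% and 1.16% of severe ones, with severe mouse 2 at 0. Of 7 members tested 6 had a higher mean share, with a median difference of 4.40 per 10000. C3, the central component of the cascade, had 4, 3 and 2 naive and 3, 0, 30 and 2 severe footprints, all coding (exact permutation p = 0.229, adjusted 0.642), and 33, 16 and 17 mild ones. C4b, the component that acts before it, had 8, 3 and 13 naive and 15, 0, 36 and 2 severe footprints (exact permutation p = 0.286, adjusted 0.703), and 32, 18 and 29 mild ones. C1qa, a chain of the initiating complex, had 0 naive and 0, 0, 3 and 1 severe footprints. Its difference equals the median of the list and came mostly from the 1 footprint in severe mouse 6. That footprint made a share of 16.6 per 10000, against 1.01 for the 3 in severe mouse 5. None of the 3 genes passed the test, and C3 had more footprints in mild mouse 3 than in the far longer list of severe mouse 5.

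Antigen presentation genes took 0.0194%, 0.159% and 0.0187% of the naive and 0.262%, 0, 0.158% and 0.664% of the severe in-gene footprints, which overlapped, with naive mouse 2 holding 25 footprints against 3 in each of the other naive mice. Of 9 antigen presentation genes tested 6 had a higher and 3 a lower mean share, and of 4 interferon genes 1 had a higher and 3 a lower one. Of the genes without a naive footprint, Cd74, the chaperone of class II molecules, had 0, 0, 6 and 1 severe footprints, and H2-Aa, a class II chain, had 3, 0, 4 and 0. The class I gene H2-D1 had 2, 6 and 1 naive and 0, 0, 3 and 2 severe footprints. The interferon response list took 0.0324%, 0.0635% and 0.0187% in the naive and 0.0437%, 0, 0.182% and 0 in the severe mice, which overlapped.

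The lists of neuronal membrane proteins lay on the other side. Of 25 transmitter receptor genes tested, 25 had a lower mean share in the severe mice, 8 of these without overlap between groups, and the median difference was -2.13 per 10000. Over all genes tested 75.5% had a lower mean share, 8.97% did not overlap in this direction and the median was -0.355 per 10000. The list took 1.32%, 1.02% and 0.948% of the naive and 0.393%, 0, 0.803% and 0 of the severe in-gene footprints. The 95% Wilson interval of severe mouse 2 was 0 to 2.20%, which covers every naive share. That of severe mouse 5, 0.708% to 0.911%, overlapped the 0.809% to 1.11% of naive mouse 3. The median span of the members was 324 kb, and the part of gene span in this difference was not tested. The 8 genes were the AMPA receptor subunits Gria1 and Gria2, the delta receptor Grid1, the kainate receptor Grik1, the NMDA receptor subunits Grin2b and Grin3a, and the GABA receptor subunits Gabrb1 and Gabrg3. Gria1 had 8, 6 and 6 naive and 0, 0, 8 and 0 severe footprints. Grik1 had 1, 4 and 1 and Grin3a 1, 1 and 5 naive footprints, each against 1 in severe mouse 5, a share of 0.336 per 10000. Severe mice 1, 2 and 6 had none in any of the 8 genes, so that the lack of overlap rested on severe mouse 5. Grin1, the obligatory NMDA receptor subunit with a short gene of 28.0 kb, was not among them, with shares of 7.12, 4.44 and 6.86 against 13.1, 0, 7.40 and 0 per 10000 (exact permutation p = 0.943, adjusted 1).

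Of 35 genes of neuronal adhesion and synapse organization tested, 31 had a lower and 4 a higher mean share, with a median difference of -3.51 per 10000 and 11 without overlap. The list took 5.78%, 3.32% and 2.87% of naive and 1.31%, 0, 2.84% and 0.997% of severe in-gene footprints, so that severe mouse 5 lay just under naive mouse 3. The median span of its members was 747 kb. Among the 11 were Nrxn3, a presynaptic organizer, with 25, 22 and 20 naive and 0, 0, 33 and 0 severe footprints, and its postsynaptic partner Nlgn1, which had 55, 25 and 23 naive and 2, 0, 25 and 0 severe footprints. Lsamp, a limbic adhesion molecule, had 193, 86 and 70 naive and 1, 0, 152 and 0 severe footprints (exact permutation p = 0.0857, adjusted 0.486), almost all intronic. Nfasc (neurofascin), which holds the node of Ranvier and the paranode together, went the other way with shares of 16.8, 9.52 and 9.98 against 30.6, 0, 18.2 and 33.2 per 10000 (exact permutation p = 0.371, adjusted 0.804).

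**Figure D5:**
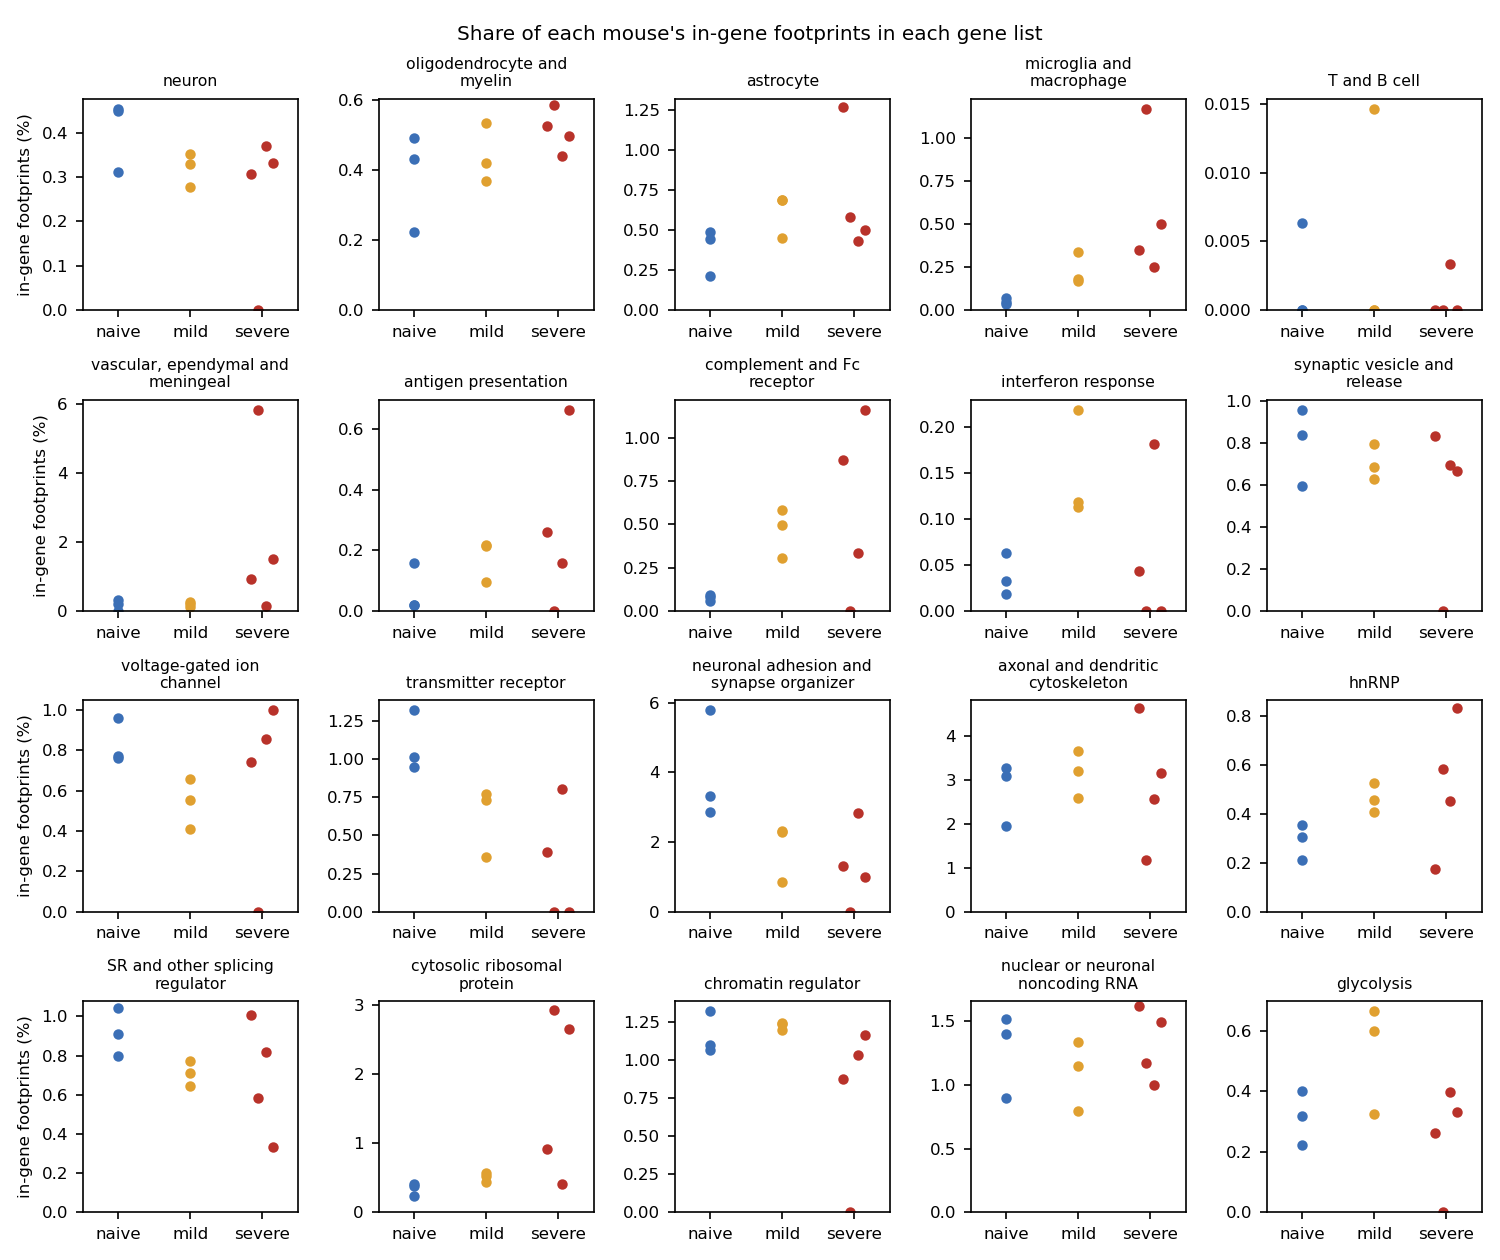
Share (%) of each mouse's in-gene footprints that fell in each of the 20 gene lists, 1 point per mouse for the naive, mild EAE and severe EAE groups, with each vertical axis starting at 0 and scaled to its own list. All severe points lie above all naive points for microglia and macrophage genes and for ribosomal protein genes and below them for transmitter receptor and for neuronal adhesion genes, and the naive and severe points overlap in the other lists.

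Other neuronal and glial lists overlapped between groups, and their shares of genes with a lower mean were near or below the 75.5% of all genes tested. General neuron markers had 14 of 19 tested genes with a lower mean share and a median difference of -0.679 per 10000. Voltage-gated ion channel genes had 20 of 26 lower, synaptic vesicle genes 15 of 23, astrocyte genes 11 of 19 and oligodendrocyte and myelin genes 10 of 18, with median differences of -0.779, -0.796, -0.339 and -0.189. The myelin gene Mbp had 26, 9 and 25 naive and 2, 1, 35 and 1 severe footprints (exact permutation p = 0.714, adjusted 0.938). Sox10, the transcription factor of the oligodendrocyte lineage, had shares of 1.94, 1.90 and 1.25 against 0, 0, 0.336 and 0 per 10000, without overlap. In the axonal and dendritic cytoskeleton list 23 of 33 genes were lower, at a median of -0.423. It took 3.08%, 1.94% and 3.26% of naive and 4.63%, 1.17%, 2.56% and 3.16% of severe footprints.

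RNA-binding proteins often bind the transcripts of their own family, and their genes were read as lists too. Of 20 hnRNP genes tested 15 had a lower and 5 a higher mean share, with a median difference of -0.458 per 10000, which is close to the 75.5% and -0.355 of all genes tested. Hnrnpa2b1, a close paralog of hnRNP A1, had 6, 3 and 6 naive and 0, 0, 2 and 0 severe footprints, and shares of 3.88, 1.90 and 3.74 against 0.672 in severe mouse 5. Hnrnpk, which binds C-rich RNA, had 1, 2 and 0 naive and 2, 0, 6 and 2 severe footprints (exact permutation p = 0.257, adjusted 0.642). Of 32 SR and other splicing regulator genes tested 23 were lower, at a median of -0.451, and 3 of them, Rbfox1 and Elavl4 among these, did not overlap between groups. Elavl4, a neuronal stabilizer of mRNA, had 3, 2 and 3 naive and 0, 0, 1 and 0 severe footprints.

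Among chromatin regulator genes 25 of 31 had a lower mean share at a median of -1.83 per 10000, although the list took 1.10%, 1.07% and 1.32% of naive and 0.874%, 0, 1.04% and 1.16% of severe footprints, which overlapped. Of 36 cytosolic ribosomal protein genes tested 21 had a higher and 15 a lower mean share, at a median of 0.965. Their share was 0.382%, 0.235% and 0.405% in the naive mice and 0.918%, 2.92%, 0.413% and 2.66% in the severe mice, so that severe mouse 5 exceeded naive mouse 3 by little. Of 13 noncoding RNA genes of the nucleus tested 8 were lower, at a median of -0.646, and of 15 glycolysis genes 8, at a median of -0.838. Vascular, ependymal and meningeal genes had 4 of 8 lower, at a median of -0.373, with Col1a1 and Col1a2 among the other 4. Their footprints numbered 1, 50 and 30 in the naive mice, so that naive mouse 1 stood apart from the other naive mice.

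The genes with the largest mean share over the 7 mice, chosen without regard to group, mostly did not separate the groups. This mean gives much weight to severe mouse 2, in which Col1a1 and Col1a2 each took 292 per 10000. Both of these genes and Fn1 were among the 10 and were higher in every severe mouse, as given above. Lrp1, a large endocytic receptor of neurons, astrocytes and microglia, had 55, 15 and 43 naive and 22, 2, 73 and 6 severe footprints, nearly all coding, with shares of 35.6, 9.52 and 26.8 against 96.2, 117, 24.5 and 99.7 per 10000 (exact permutation p = 0.114, adjusted 0.486). Dst (dystonin), a giant cytoskeletal linker, had 87, 32 and 71 naive and 13, 0, 101 and 3 severe footprints (exact permutation p = 0.8, adjusted 1). Snhg14, the long imprinted host of small nucleolar RNAs, had 85, 52 and 98 naive and 17, 0, 124 and 6 severe footprints (exact permutation p = 0.886, adjusted 1). Ahnak2, a giant scaffold protein, had 8, 5 and 7 naive and 8, 6, 10 and 3 severe footprints (exact permutation p = 0.343, adjusted 0.804), and its 6 footprints took up 351 per 10000 of the list of severe mouse 2. In Lrp1, Dst, Snhg14 and Ahnak2 the share in severe mouse 5 lay inside the naive range.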

How the data were processed

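CLIPseq footprints of hnRNP A1 from 4 severe EAE and 3 naive spinal cords were compared, with 3 mild EAE cords as a description. The authors demultiplexed the reads (bcl2fastq 2.19.0.316), trimmed them (fastp), assembled them into fragments (rnaSPAdes), aligned these to GRCm38 in spliced mode (minimap2 2.17), subtracted positions found in the matched input and in pooled IgG and merged the rest (bedtools). The deposited lists therefore hold genome positions only, of sites that passed this subtraction, and the reads behind a footprint are unknown. All other values were computed here from these positions.

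Genes were the spans of the GENCODE M21 annotation of GRCm38. A footprint counted for each gene it overlapped by at least 1 nt. Shares were taken per 10000 in-gene footprints. Genes with a footprint in at least 2 of the 7 mice were tested with 2-sided exact permutation tests over mice, with Benjamini-Hochberg adjustment over 7099 genes, and with limma 3.58.1 in R 4.3.3 on log2(share + 1) as an alternative. Equal list length was reached by the hypergeometric expectation. Intervals are 95% Wilson intervals, and a count of 0 was taken to allow 3 footprints. Both cover counting error only. Python 3.11.15, numpy 2.4.6, scipy 1.17.1, pysam 0.24.0 and samtools 1.23.1 were used, and the scripts were tested on simulated data. Repeats are the soft-masked letters of the reference.

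Groups came from the treatment and clinical scores in the labels. Named genes were, among protein-coding and long noncoding RNA genes, the 10 with the largest naive share among those in all naive and no severe mice, up to 10 in at least 3 severe and no naive mice, up to 10 in each direction whose shares did not overlap, the 10 with the largest mean share, and in each of 20 lists up to 4 members by mean share and those without overlap. The leukocyte receptor cluster, Npc2, Rpl28 and Snora7a fall outside this rule and were chosen after their values were seen. Some genes that meet the rule are not reported here. The members and lists were chosen with earlier results of these data known.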

Additional observations from a re-analysis of the deposited data

Results flagged for a closer look

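In 5 of 27 measures examined over the 4 severe mice, 1 mouse lay farther from the others than Dixon's 95% limit for the gap to the nearest of 4 samples allows. Chance alone passes this limit in about 1 of 20 groups. Severe mouse 5 stood apart by its 31870 footprints (gap 0.922 of the range), by its 29747 in-gene footprints (0.928) and by its 8298 genes with a footprint (0.832), 3 measures of the same list length. It was also alone in having a footprint in a T and B cell gene, at 0.00336% of its in-gene footprints, which is 1 footprint in Coro1a, an actin-binding protein of leukocytes, and lies below the 0.00635% of naive mouse 2. Severe mouse 2 stood apart by the 145 genes at equal list length (gap 0.842), where the other severe mice had 182 to 189. The share in genes over 100 kb was not among the 5, with severe mouse 2 at 17.5% and a gap of 0.469 of the range.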

How the results depend on the processing

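Leaving out 1 mouse at a time, the difference in footprints in genes over 100 kb ran from -22.2 percentage points (without severe mouse 5) to -15.1 (without severe mouse 2). The exact permutation p was 0.0667 without a naive mouse and 0.1 without a severe mouse. Each is the smallest p that the remaining mice can give, so it cannot show a weaker difference. The difference in genes per mouse ran from -4875 to -2157, in genes at equal list length from -10.3 to -4.38, in the percentage in any gene from -5.08 to -1.24 and in the percentage in protein-coding genes from -5.94 to -2.28. The genes in all naive and no severe mice ran from 157 to 1572 and those in at least 3 severe and no naive mice from 4 to 40. The genes with a higher share in every naive mouse ran from 650 to 1620 and those with a higher share in every severe mouse from 8 to 51.

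Of the other settings, spans with 1000 nt added on both sides turned the difference at equal list length to 0.646 genes (exact permutation p = 1). Counting protein-coding genes only left 15 of the genes in at least 3 severe and no naive mice. Counts of calls by limma replaced the counts without overlap with 0 lower and 0 higher genes at a pseudocount of 1, and 4 lower (6330411D24Rik, Cdh18, Cpne9 and Ppp1r12c, the first 3 at an adjusted p of 0.04 in limma) and 0 higher at a pseudocount of 10. The alternatives that follow were chosen after the data were seen. Footprints overlapping exactly 1 gene gave 125 genes in all naive and no severe mice, of which 105 are among the 156, and 10 of the 26 in the other direction, while 517 and 4 genes did not overlap between groups (486 and 4 of them among the 637 and the 7). Without footprints mostly of soft-masked repeats the 4 counts were 118, 27, 600 and 6 genes, with 103 of the 156 and 26 of the 26 kept. Without severe mice 2 and 6, 494 genes were higher in both remaining severe mice, and in severe mouse 5 alone 1822. The cause of these changes was not tested.

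The labels give naive and severe mice the shared numbers 1 and 2 only. With these as a replicate block the differences were -4867 genes, -18.5 genes at equal length, -6.50 percentage points in any gene, -24.8 in genes over 100 kb and -3.81 in protein-coding genes (exact permutation p 0.5 or 1). With 2 pairs, 0.5 is the smallest p this test can give. Deviations of same-numbered mice correlated at -0.0129 and 0.067, and the numbers were not taken to pair mice. The lists give no number of reads per footprint. The study reports the read depth of each library, describes it as similar among samples, and it was not used here. Of the compared immunoprecipitations, that of severe mouse 5 had the most uniquely mapped reads there and that of naive mouse 2 the fewest. Those of severe mice 1, 2 and 6, with the short lists, lay between these, each well above that of naive mouse 2. The shortest severe lists limit what absence can show.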
